A study of Mus musculus with 8 samples.

Results

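The Klhl and Kbtbd genes encode kelch-like substrate adaptors of a ubiquitin ligase. Of the 19938 genes tested in this series, 45 belonged to the family. Members were selected by gene symbol, Klhl or Kbtbd followed by a digit, in the array's probe annotation. Where a gene had several probe sets (groups of array probes read as 1 value), the probe set with the highest mean over all 8 arrays was used. The choice of the family itself was made with the mutant against control results already known. Counts over the family therefore describe it and support nothing about it. The RefSeq gene table of assembly GRCm38.p6 lists 46 protein-coding genes under the same symbol rule. All 45 members matched it by Entrez identifier, and the remaining gene, Klhl17, was not analysed here.

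The tissue was upper neocortex (layers II to IV) of mouse pups at postnatal day 2, cut from sections with a laser. Control pups (n = 4) had the genotype Bcl11a flox/+;Emx1 IRESCre/+ and mutant pups (n = 4) Bcl11a flox/flox;Emx1 IRESCre/+, with 1 Affymetrix Mouse Gene 1.0 ST array per pup. Bcl11a is a zinc finger transcription factor of projection neurons. Cre from the Emx1 locus acts in the cortical progenitors of excitatory neurons and much of the glia, but not in those of most interneurons. Every pup carried Cre and at least 1 floxed allele, so the controls had lost 1 copy where Cre acted. The comparison asks which genes differ when both copies are lost. In such bulk tissue, fewer cells of a type and less RNA per cell cannot be told apart.

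Most kelch-like proteins share 3 parts. A BTB domain binds the scaffold Cullin 3, a BACK domain follows it, and a propeller of kelch repeats holds the substrate. The complex attaches ubiquitin to the substrate, which marks it for degradation or changes its activity or place in the cell. In neurons, members of the family are known to act on actin, ion channels, receptors and kinases.

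Values are deposited log2 expression, and array medians lay between 4.83 and 4.91. Xist, the RNA of the inactive X chromosome, read 8.89 or higher in controls 1 and 3 and mutant 3, and 3.81 or lower in the other arrays, so the sexes were not balanced between the groups. Bcl11a itself fell from 10.45 ± 0.13 to 8.63 ± 0.21 (SD, n = 4), a log2 difference of -1.82. All 9 upper-layer and all 9 excitatory neuron markers measured read above the background level described further down. Control 1 had the lowest array weight, 0.556, and its mean over the 9 excitatory neuron markers was 8.49, against 8.92 to 9.01 in the other controls and 8.88 to 8.97 in the mutants. Here and below, rose and fell mean a Benjamini-Hochberg adjusted p under 0.05 over all genes tested with limma, and differences are mutant minus control.

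In mutant layers 3 members fell and 2 rose, while 40 did not pass. Klhl1, Klhl4 and Klhl32 fell by about 0.9 to 1.2 on the log2 scale, and Klhl29 and Klhl13 rose by much less. The 5 changed members make up 11.1% of the family, against 4.15% of all genes. By direction, 2.36% of all genes rose and 1.79% fell. Control and mutant values did not overlap for 6 of the 45 members (13.3%), against 9.25% of all genes. These 6 were the 5 changed members and Klhl21. Any gene whose groups do not overlap has an exact two-sided permutation p of 0.0286, so that p only restates the lack of overlap. No comparison of 4 arrays with 4 can go lower. The median difference over the 45 members was 0.010, beside 0.017 over all genes, with 24 members above 0 and 21 below. At an unadjusted p under 0.05 there were 9 of the 45 members and 13.99% of all genes.

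**Figure D1:**
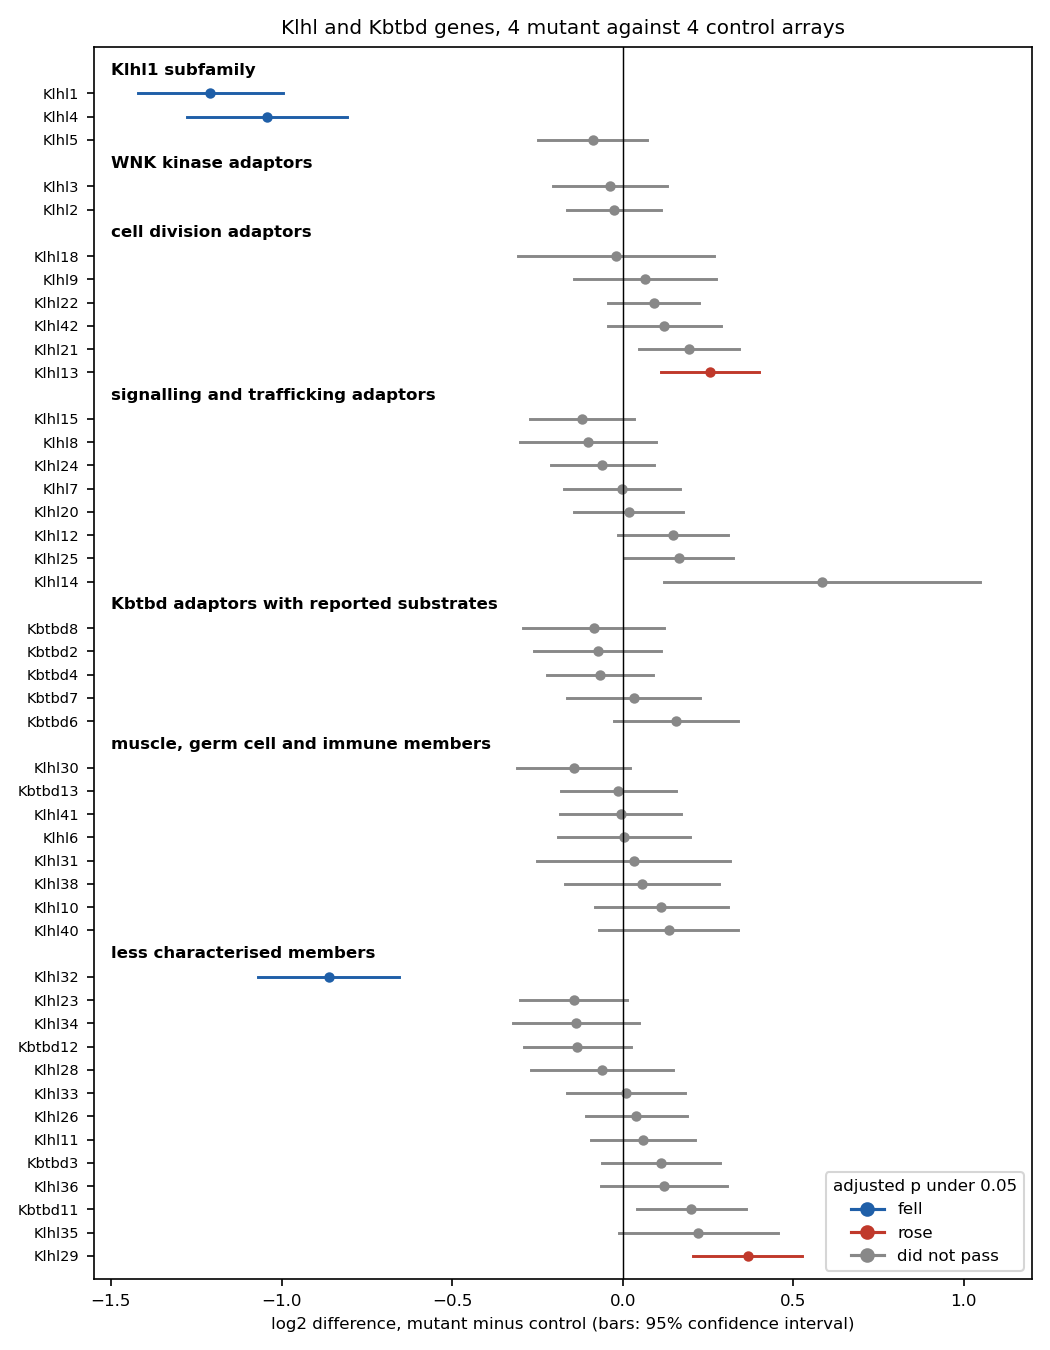
Log2 difference, mutant minus control, of each of the 45 members (point) with its 95% confidence interval (bar), grouped by known role and coloured by whether the adjusted p was under 0.05. Klhl1, Klhl4 and Klhl32 lie far to the left at -1.21, -1.04 and -0.86, while the intervals of most other members include 0.

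The falls of Klhl1 and Klhl4 lay within 1 small branch of the family. Klhl1 encodes an actin-binding protein of neurons that also modulates voltage-gated calcium channels, and Klhl4 and Klhl5 are its close relatives. Klhl1 read 8.18, 7.72, 7.74 and 7.97 in controls 1 to 4 and 6.61, 6.82, 6.72 and 6.62 in mutants 1 to 4. Every mutant lay below every control, and the gap between the groups was wider than the range of either. The mean went from 7.90 ± 0.22 to 6.69 ± 0.10 (SD, n = 4), which is 2.31-fold lower with a 95% interval of 2.00 to 2.68 (log2 difference -1.21, SE 0.098, adjusted p = 1.19e-05).

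Klhl4 read 7.34, 7.51, 7.17 and 7.36 in the controls and 6.63, 6.26, 6.09 and 6.24 in the mutants. Mutant 1 was the highest of its group and still lay below every control. The mean went from 7.35 ± 0.14 to 6.31 ± 0.23 (SD, n = 4), 2.06-fold lower with an interval of 1.75 to 2.42 (log2 difference -1.04, SE 0.11, adjusted p = 8.02e-05). Klhl5, the third of these relatives, did not pass. It read 8.37, 8.191, 8.35 and 8.33 in the controls and 8.39, 8.183, 8.187 and 8.13 in the mutants. Mutant 1 lay above every control and the other mutants lay below every control, so the groups overlapped. The difference of Klhl5 was -0.088 with a 95% interval of -0.25 to 0.071. The intervals of Klhl1 (-1.42 to -0.997) and Klhl4 (-1.28 to -0.81) lay wholly below that of Klhl5, though the difference between genes was not itself tested.

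Klhl32, a less characterised member, also fell. Its probe set read 6.84, 7.22, 6.90 and 6.96 in the controls and 6.29, 5.95, 6.05 and 6.18 in the mutants. The groups were separated by more than the spread within either. The mean went from 6.98 ± 0.17 to 6.12 ± 0.15 (SD, n = 4), 1.82-fold lower with an interval of 1.58 to 2.10 (log2 difference -0.86, SE 0.095, adjusted p = 1.27e-04). Klhl32 had a second, dimmer probe set, which read 4.35, 4.25, 4.69 and 4.75 in the controls and 3.89, 4.11, 3.59 and 3.97 in the mutants. Its mutant mean of 3.89 lay below the background level of 4.29 described further down, and its control mean of 4.51 little above it, so the size of its difference (-0.62, SE 0.13, adjusted p = 0.0119 over the 21789 probe sets with 1 symbol) is no measure of the fall.

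Klhl1, Klhl4 and Klhl32 passed under each of the 18 alternative settings that were fitted, which include leaving out each array in turn. Their smallest differences there were -1.12 for Klhl1, -0.97 for Klhl4 and -0.74 for Klhl32. The value for Klhl32 came from averaging its probe sets, which includes the dimmer one near background. With an array left out its smallest difference was -0.78. Other neuronal genes moved in the same arrays. Of 9 upper-layer markers 5 fell and 0 rose, and their mean level was 9.41 to 9.50 in controls and 8.99 to 9.17 in mutants. Of 10 deep-layer markers Ldb2 rose and Ntsr1 fell, and the list mean was 7.03 to 7.32 in controls and 7.40 to 7.45 in mutants. Of 13 interneuron markers Npy and Dlx1 fell, 0 rose, and the list mean was 6.94 to 7.12 in controls and 6.76 to 6.86 in mutants. Of the 9 excitatory neuron markers Neurod6 rose by 0.70, while Slc17a6 and Emx1 fell by 0.51 and 0.49. Of 5 markers of Cajal-Retzius cells Reln fell by 0.57 and 0 rose, with 3 of the 5 above 0 and a median difference of 0.043. Outside neurons, Glul fell among 10 astrocyte markers and Abcc9 among 9 vascular markers, and Myh3 rose among 7 muscle markers. None passed in the oligodendrocyte, microglia, meninges, striatum and red cell lists. Of the vascular markers 8 lay below 0, and the list mean was 6.53 to 6.64 in controls and 6.37 to 6.54 in mutants. Below 0 were also 8 of 10 astrocyte, 6 of 8 meninges and 5 of 7 oligodendrocyte markers, but 3 of 9 microglia and 2 of 7 muscle markers. The part of these marker shifts in the falls of Klhl1, Klhl4 and Klhl32 was not tested.

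**Figure D2:**
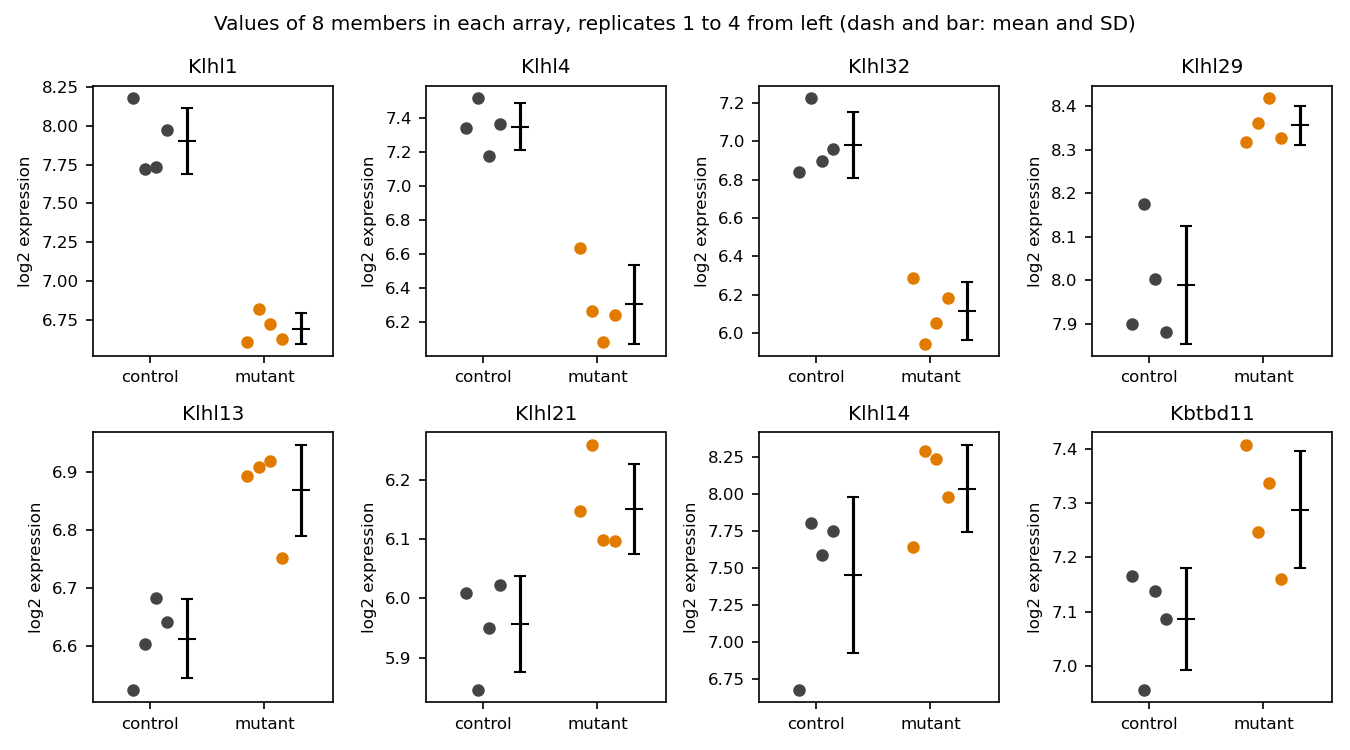
Log2 expression of 8 members in each control (grey) and mutant (orange) array, with the group mean and SD beside the points; each panel has its own axis, which does not start at 0. Klhl1, Klhl4, Klhl32, Klhl29, Klhl13 and Klhl21 show 2 separate groups, while Klhl14 and Kbtbd11 overlap.

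The 3 members that fell differ in the sequence before their start sites. The 250 bases before each RefSeq start are shown 5′ to 3′ on the gene's strand (build GRCm38.p6), with CpG dinucleotides in capitals, beside Klhl29, which rose. CpG-rich stretches are typical of broadly used promoters. The windows lie at chr14:96519035-96519284 for Klhl1 (minus strand), chrX:114474083-114474332 for Klhl4 (plus strand), chr4:24851125-24851374 for Klhl32 (minus strand) and chr12:5375683-5375932 for Klhl29 (minus strand).
Klhl1: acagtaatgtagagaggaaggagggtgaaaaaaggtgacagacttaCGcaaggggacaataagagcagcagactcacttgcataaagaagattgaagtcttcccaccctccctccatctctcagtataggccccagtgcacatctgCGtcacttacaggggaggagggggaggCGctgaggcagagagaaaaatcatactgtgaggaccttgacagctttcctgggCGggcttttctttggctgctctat
Klhl4: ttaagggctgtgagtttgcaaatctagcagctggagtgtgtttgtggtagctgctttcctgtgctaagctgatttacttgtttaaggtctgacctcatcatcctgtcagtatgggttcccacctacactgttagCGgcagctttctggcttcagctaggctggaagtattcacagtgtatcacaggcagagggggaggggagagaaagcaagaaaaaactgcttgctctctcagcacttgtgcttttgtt
Klhl32: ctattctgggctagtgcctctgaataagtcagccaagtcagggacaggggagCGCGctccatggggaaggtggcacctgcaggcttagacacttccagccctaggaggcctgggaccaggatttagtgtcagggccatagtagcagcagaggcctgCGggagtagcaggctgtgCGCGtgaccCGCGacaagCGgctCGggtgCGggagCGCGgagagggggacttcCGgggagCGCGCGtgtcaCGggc
Klhl29: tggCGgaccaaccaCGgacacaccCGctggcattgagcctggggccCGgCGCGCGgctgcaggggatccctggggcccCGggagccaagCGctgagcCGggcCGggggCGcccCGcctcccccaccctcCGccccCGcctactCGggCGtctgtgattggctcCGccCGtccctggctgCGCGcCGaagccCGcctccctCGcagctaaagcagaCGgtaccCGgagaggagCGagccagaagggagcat
Klhl1 and Klhl4 hold 4 and 1 CpG in these windows, below the median of 6 over all 32851 windows in the table. Klhl32 and Klhl29 hold 17 and 27, and the median of the 49 windows of members was 13. The falls thus came from genes with few CpG and from a gene with many. Klhl13 has 5 listed starts, and their windows held from 0 to 12 CpG.

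2 motifs were searched on both strands of each window, here 250 bases before to 50 after the start. TGACCA, the core of a known BCL11A site, was found in 6 of the 37 members with an entry (16.2%), against 15.4% of all 27025 genes in the table. The 6 were Kbtbd8, Kbtbd13, Klhl10, Klhl28, Klhl36 and Klhl41, and none of them changed. TTCCTAGAA, a core of the BCL6 site, was found in 0 of the 37 members and in 0.474% of all genes. A match is a description of letters and not a bound site, and binding elsewhere was not measured.

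Klhl29, a less characterised member with a long gene, rose. It read 7.90, 8.18, 8.004 and 7.88 in the controls and 8.32, 8.36, 8.42 and 8.33 in the mutants. The mutants were tightly grouped and all above control 2, the highest control. The mean went from 7.99 ± 0.14 to 8.36 ± 0.05 (SD, n = 4), a 1.29-fold rise with an interval of 1.15 to 1.44 (log2 difference 0.37, SE 0.074, adjusted p = 0.0118). Without variance moderation this call was lost (adjusted p = 0.0888).

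The second riser, Klhl13, belongs to the 6 members that act on cell division. Klhl13 and its close relative Klhl9 work together with Cullin 3 on the mitotic kinase Aurora B, as does Klhl21. Klhl13 read 6.52, 6.60, 6.68 and 6.64 in the controls and 6.89, 6.91, 6.92 and 6.75 in the mutants. Mutant 4 lay apart from the other mutants, between them and the controls. The mean went from 6.61 ± 0.07 to 6.87 ± 0.08 (SD, n = 4), a 1.19-fold rise with an interval of 1.08 to 1.32 (log2 difference 0.26, SE 0.066, adjusted p = 0.0487). Klhl13 lies on the X chromosome, as does Klhl4, and the sexes were not balanced between the groups. With the Xist level as a covariate the difference of Klhl4 was -1.10 (adjusted p = 7.29e-05). The call of Klhl13 was near the threshold. It was lost in 13 of 18 alternatives, among them the omission of any 1 array other than mutant 4 (adjusted p from 0.0634 to 0.142), the Xist level as a covariate (0.0780), array weights (0.0513) and centring each array on its median (0.101).

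Klhl21 read 6.01, 5.84, 5.95 and 6.02 in the controls and 6.15, 6.26, 6.10 and 6.10 in the mutants. The groups did not overlap, but its difference of 0.19 (SE 0.068) did not pass (adjusted p = 0.169). Klhl9 had a difference of 0.066 with a 95% interval of -0.14 to 0.27, so that of Klhl13 lay inside it. The other members of this group also did not pass. They were Klhl22, an adaptor for Polo-like kinase 1 (0.092), Klhl42, for the microtubule-severing katanin (0.12), and Klhl18, for Aurora A (-0.020). The substrate genes Aurkb and Aurka had differences of 0.11 and 0.11 and did not pass.

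Of the 8 members with known roles in signalling, trafficking and receptor handling, none passed, and their differences ran from -0.12 to 0.58. The highest was that of Klhl14, whose protein binds torsinA. Klhl14 read 6.67, 7.81, 7.59 and 7.75 in the controls and 7.64, 8.29, 8.24 and 7.98 in the mutants. Control 1 lay far below the other controls, and mutant 1 fell within the control range. The difference of 0.58 (SE 0.21, 95% interval 0.12 to 1.05) did not pass, with an adjusted p of 0.201. Without control 1, the array with low excitatory neuron markers, it was 0.32 (adjusted p = 0.259). Klhl14 passed in 1 of the 18 alternatives, the fit with the replicate number as a block. Its control SD of 0.53 and mutant SD of 0.30 were the widest of the 45 members.

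The remaining 7 of these members had smaller differences, and none of them passed. Klhl25, an adaptor for the translation repressor 4E-BP1, had a difference of 0.17 (95% interval 0.0083 to 0.32) and Klhl12, which acts on Dishevelled and on the vesicle coat protein Sec31, of 0.15. Klhl20, which acts on the death-associated kinase DAPK1, had 0.018, and Klhl7, a gene of inherited retinal degeneration, had -0.0024. Klhl24, which binds kainate receptors, had -0.059, Klhl8 -0.10 and Klhl15, an adaptor for a phosphatase 2A subunit, -0.12. For Klhl24 the 95% interval was -0.21 to 0.091, while Grik2, the kainate receptor subunit it binds, rose from 7.97 ± 0.31 to 8.51 ± 0.13 (SD, n = 4, adjusted p = 0.0256). The call of Grik2 was lost without any 1 mutant (adjusted p up to 0.0859), with the Xist level as a covariate and without variance moderation.

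The adaptors of WNK kinases, which control salt transport, were Klhl2 and Klhl3, and neither passed. Klhl2 read 8.51 to 8.62 in controls and 8.52 to 8.66 in mutants, a difference of -0.025 with a 95% interval of -0.16 to 0.11. Klhl3 had a difference of -0.037 with an interval of -0.20 to 0.13. Their substrates Wnk1, Wnk2, Wnk3 and Wnk4 had differences of -0.11, -0.011, 0.067 and -0.029 and did not pass.

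Of the 5 Kbtbd members with reported substrates none passed, and their differences ran from -0.085 to 0.16. Kbtbd2, which controls the PI3 kinase subunit p85 alpha, had -0.073, Kbtbd4, an adaptor for the CoREST corepressor, -0.066, and Kbtbd8, a regulator of neural crest formation, -0.085. Kbtbd6 and Kbtbd7 act together on Tiam1, an activator of the GTPase Rac1, and are neighbours in the gene table. Kbtbd7 had a difference of 0.032, and Kbtbd6, which read near the background level, of 0.16. They are close copies, and whether their probe sets read each other's RNA was not tested. Means over 8 arrays were 7.81 for Kbtbd7 and 4.19 for Kbtbd6. Tiam1 read lower without overlap, from 6.86 to 6.43, but did not pass (adjusted p = 0.0946).

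Among the less characterised members, Kbtbd11 was the one that did not pass with the lowest adjusted p. Its probe set in use read 7.17, 6.96, 7.14 and 7.09 in the controls and 7.41, 7.25, 7.34 and 7.16 in the mutants. Mutant 4 and control 1 overlapped, and the difference of 0.20 (SE 0.074) did not pass (adjusted p = 0.203). Its second probe set read 6.14, 5.995, 6.10 and 6.18 in the controls and 6.45, 6.33, 6.40 and 6.36 in the mutants, with no overlap. In the fit over all probe sets with 1 symbol it was higher by 0.28 (SE 0.065, adjusted p = 0.0281), so the 2 probe sets had the same sign and differed in the call. Klhl35 had a difference of 0.22 that fell to 0.099 without mutant 1, and did not pass in either case. The other 9 members of this group that did not pass were Klhl11, Klhl23, Klhl26, Klhl28, Klhl33, Klhl34, Klhl36, Kbtbd3 and Kbtbd12. Over all 11 that did not pass, differences ran from -0.14 to 0.22.

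The 8 members known from muscle, germ cells or immune cells have their best-known roles outside the brain. They are Klhl31, Klhl40, Klhl41 and Kbtbd13, which are needed in striated muscle, Klhl30 and Klhl38, which are expressed there, Klhl10, which acts in developing sperm, and Klhl6, which acts in B cells. None passed, and their differences ran from -0.14 to 0.14. As a rough background level the 95th percentile of 1027 olfactory receptor genes was used, which was 4.29. Of the 45 members 36 read above it and 9 at or below it, against 69.0% of all genes above. 6 of those 9 were from this group (Klhl10, Kbtbd13, Klhl38, Klhl6, Klhl30 and Klhl31) and the others were Klhl33, Kbtbd12 and Kbtbd6. The other 2 of the group, Klhl40 and Klhl41, read 4.46 and 4.48. These counts depend on the level chosen. Above the 99th percentile of the olfactory receptor genes, 5.41, were 30 members and 50.5% of all genes. Above the median of the olfactory receptor genes, 3.26, were 45 members and 92.3% of all genes. The 2 probe sets of Klhl31 differed in sign (0.033 and -0.022) and those of Kbtbd12 did not (-0.13 and -0.12), and none passed. A fold near background understates a change, so a change in these members could go undetected.

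**Figure D3:**
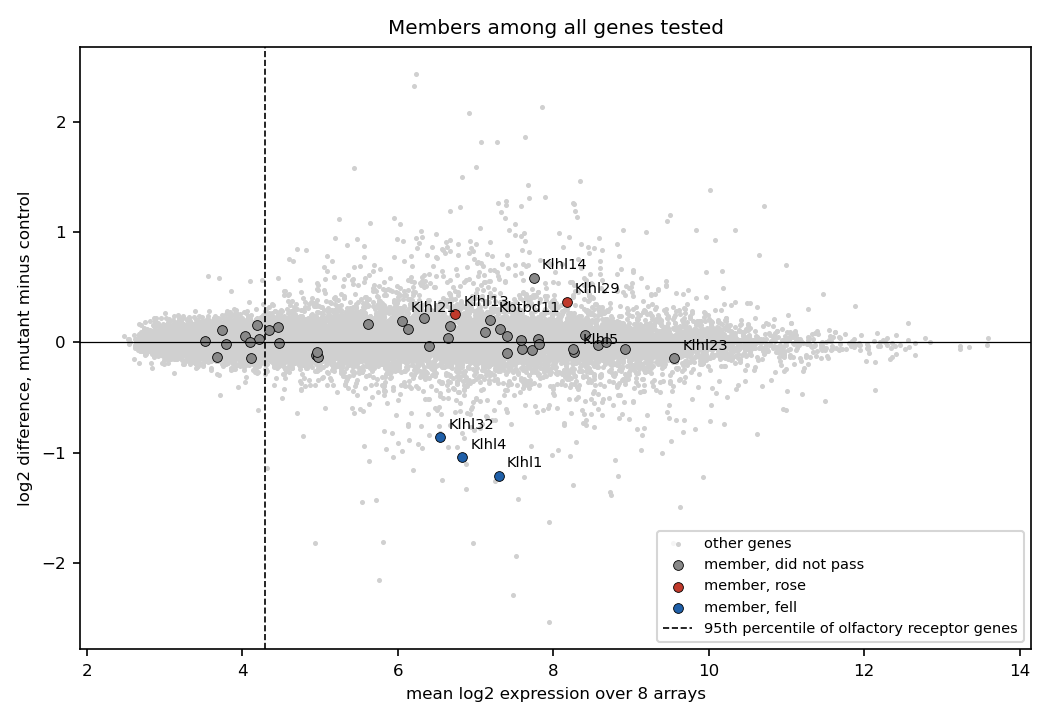
Mean log2 expression over the 8 arrays against the log2 difference, mutant minus control, for all 19938 genes (light grey) and the 45 members (outlined points). The 5 changed members lie to the right of the dashed background level of 4.29, and the 9 members at or below it lie close to a difference of 0.

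The 5 changed members come from long genes. Their spans in the gene table were 414 kb for Klhl1, 298 kb for Klhl29, 239 kb for Klhl32, 146 kb for Klhl13 and 86.8 kb for Klhl4, with a median of 239 kb. The 40 members that did not pass had a median of 22.1 kb. Klhl3, Klhl14 and Klhl2 were also longer than 100 kb and did not pass. The same difference was present over all genes, with medians of 69.7 kb for changed genes and 17.1 kb for the rest. This property was looked at after the changed members were known and is a description.

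In 5 lists of genes related by protein domain or pathway, 0% to 4.55% of genes passed, beside 4.15% of all genes. Of 22 further kelch-repeat genes with other symbols, Klhdc1 fell and 21 did not pass, with a median difference of 0.030. Klhdc1, a substrate receptor of a Cullin 5 ligase, went from 5.07 ± 0.18 to 4.68 ± 0.10 (SD, n = 4, adjusted p = 0.0295). That call was lost without any 1 of controls 2, 3 and 4 or mutants 1, 2 and 4 (adjusted p up to 0.106). The kelch adaptors Keap1, which controls the oxidative stress factor Nrf2, and Enc1, a neuronal actin-binding protein, had differences of -0.023 and 0.073 and did not pass.

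Of 24 genes of the Cullin 3 core and its activation by the ubiquitin-like protein Nedd8, 0 passed by limma, with 5 (20.8%) at an unadjusted p under 0.05, against 13.99% of all genes. Cul3 itself went from 10.32 ± 0.11 to 10.11 ± 0.13 (SD, n = 4), with no overlap between groups and a difference of -0.22 (SE 0.080) that did not pass (adjusted p = 0.206). Dcun1d3, a regulator of Nedd8 attachment, read higher by 0.24 without overlap and did not pass (adjusted p = 0.0966). Rbx1, the ring subunit that all these ligases share, had a difference of 0.039. Of 11 other cullins and their partners 0 passed by limma, with 2 (18.2%) at an unadjusted p under 0.05.

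Of 49 BTB proteins without kelch repeats, Btbd11 rose, Btbd10 fell and 47 did not pass. Btbd11 went from 7.32 ± 0.05 to 7.89 ± 0.15 (SD, n = 4), a 1.48-fold rise (adjusted p = 7.16e-04). Btbd10 went from 7.99 ± 0.05 to 7.67 ± 0.14 (SD, n = 4, adjusted p = 0.0295), a call lost without any 1 of controls 2, 3 and 4 or mutants 1, 2 and 3 (adjusted p up to 0.0915). Of 43 reported substrates and partners of the family, Grik2 rose and 42 did not pass. The shares that changed were 4.55%, 0%, 0%, 4.08% and 2.33% for these 5 lists in turn, beside 4.15% of all genes. At an unadjusted p under 0.05 there were 3 of the 22 kelch-repeat genes (13.6%), against 13.99% of all genes. The same held for 14 of the 49 BTB genes (28.6%) and 3 of the 43 substrates (6.98%). Control and mutant values did not overlap for 9.09%, 8.33%, 9.09%, 16.3% and 4.65% of the 5 lists in turn, against 9.25% of all genes.

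**Figure D4:**
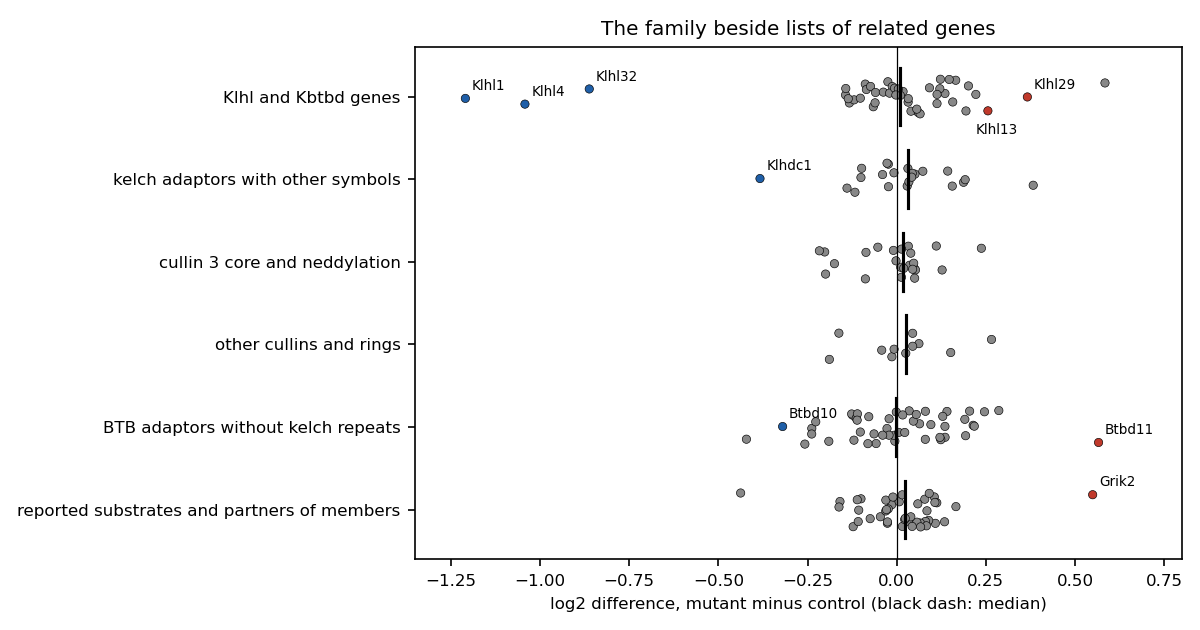
Log2 difference, mutant minus control, of each gene of the family and of 5 lists of related genes (points, coloured blue where a gene fell and red where it rose, grey where it did not pass), with the median of each list as a black dash. Medians of all 6 rows lie between -0.001 and 0.03, and the falls of Klhl1, Klhl4 and Klhl32 lie beyond every point of the other lists.

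**Figure D5:**
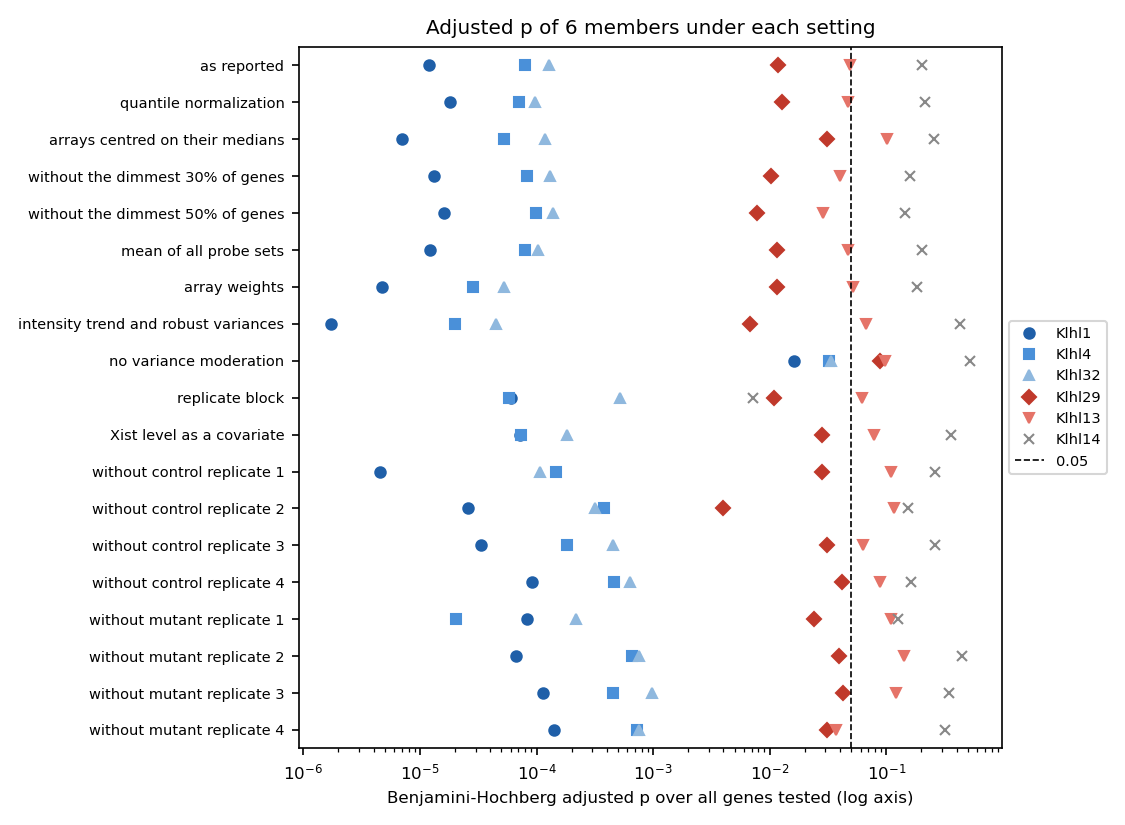
Benjamini-Hochberg adjusted p (log axis) of 6 members as reported and under 18 alternative settings, with the threshold of 0.05 as a dashed line. Klhl1, Klhl4 and Klhl32 stay to the left of it throughout, Klhl29 crosses it once, without variance moderation, Klhl13 lies on both sides, and Klhl14 is under it with the replicate number as a block alone.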

How the data were processed

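Expression was measured with 1 array per pup in 4 control and 4 mutant pups. Per the labels, the submitters used BRB-ArrayTools. How background, normalization and summarisation were handled, and the log base, is not stated in the sources at hand. Values as deposited were taken as log2 expression that the authors had normalized. Another base would leave the tests unchanged and alter the folds.

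Of 35556 probe sets, 21789 had 1 gene symbol, 1621 several and 12146 none. Probe sets with 1 symbol were kept, which gave 19938 genes, with no filter on low values. Genotypes were compared by limma 3.58.1 under R 4.3.3 (lmFit and eBayes, genotype alone, 6.91 prior degrees of freedom), with Benjamini-Hochberg adjustment over all genes. Precision is limited by how many arrays there are (median SE 0.0766). Scripts were tested on simulated data.

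The members and gene lists were chosen with earlier results of these data known. The naming rule gave values for Bcl11a, for members that passed, did not overlap or had the next 3 adjusted p, for members whose probe sets differed in sign and for up to 6 genes that passed in each list of related genes. Other members got their difference or the range of their group. Klhl2, Klhl5, Klhl35, Ldb2, Ntsr1, Npy, Dlx1, the other marker genes, and list genes that did not pass, were chosen for fuller values after their values were seen. Protein identity between members, part of that rule, was not analysed here. Alternatives covered normalization, low-value filters, probe set choice, variance estimation, covariates, thresholds and omitted arrays.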

Additional observations from a re-analysis of the deposited data

Results flagged for a closer look

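In 4 of 100 groups of 4 arrays checked among the named genes, 1 array lay apart from the other 3 by more than Dixon's 95% limit for the gap over the range. Chance flags about 1 in 20 groups. Klhl13 read 6.75 in mutant 4, against 6.89 to 6.92 in the other mutants. Klhl36 read 5.82 in control 2, against 6.14 to 6.17 in the other controls. Klhl2 read 8.51 in control 2, against 8.61 to 8.62 in the other controls. Klhl38 read 3.96 in mutant 1, against 4.09 to 4.11 in the other mutants, all below the background level.

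The second probe sets of Kbtbd11 and Klhl32 were not used in the comparison of genes, and in both the groups did not overlap. That of Kbtbd11 was higher in mutants by 0.28 (adjusted p = 0.0281) and that of Klhl32 had a difference of -0.62 (adjusted p = 0.0119), but its mutant mean of 3.89 lay below the background level of 4.29, so that size is not a measure of the change.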

How the results depend on the processing

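Of the 5 changed members, Klhl1, Klhl4 and Klhl32 kept their direction and their call in all 18 alternatives, and Klhl29 in 17. The count of changed members was 3 without variance moderation and 3 at an adjusted p under 0.01, and ran from 4 to 5 when each array was left out. Of these, 1 rose with arrays centred on their medians, with array weights, with an intensity trend and robust variances, and with the Xist level as a covariate, 0 rose without moderation or at 0.01, and 1 to 2 rose when each array was left out. Over all genes, 249 passed without moderation, and 584 to 814 when each array was left out, against 827 as reported.

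For the kelch-repeat genes with other symbols the count was 0 without the dimmest 50% of genes, without moderation and with the Xist level as a covariate, and 0 to 1 when each array was left out. For the BTB proteins it was 1 without moderation and 1 with the Xist level, and 1 to 3 when each array was left out. For the substrates it was 0 without moderation and 0 with the Xist level, 2 with the replicate block, and 0 to 1 when each array was left out. The Cullin 3 list had 0 to 1 when each array was left out (1 without control 4). Without moderation each gene's variance rests on its own arrays alone. The 50% filter removed Klhdc1 itself, whose level lay at percentile 41.6 of all genes. Elsewhere the cause was not tested.

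Deviations of arrays with the same replicate number correlated by 0.109, 0.0558, 0.295 and 0.149. For numbers 1, 3 and 4 both arrays correlated best with their own number, and for number 2 neither did. The labels give no shared litter or batch for a number. Because the groups share replicate numbers, the block was planned as an alternative. Whether the numbers mark a shared source is not known. The choice decides 2 calls. With the replicate number as a block 5 members changed, among them Klhl14 (adjusted p = 0.00722) in place of Klhl13 (0.0620).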

Other observations

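Members differed in how much they varied between pups of the same genotype. The median SD over the 45 members was 0.121 in controls and 0.103 in mutants, beside 0.101 and 0.1001 over all genes. Klhl14, Klhl31 and Klhl18 had the widest control spread, with SDs of 0.53, 0.33 and 0.28. For Klhl31 and Klhl18 these exceed the difference between genotypes (0.033 and -0.020). Klhl35 had a mutant SD of 0.26, with 6.81 in mutant 1 against 6.22 in mutant 4.

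3 pairs of members are neighbours among the protein-coding genes of the gene table: Klhl10 with Klhl11, Klhl6 with Klhl24, and Kbtbd7 with Kbtbd6. In each pair 1 gene read below the background level of 4.29 (Klhl10, Klhl6 and Kbtbd6) and its neighbour above it (means over 8 arrays of 7.40 for Klhl11, 8.92 for Klhl24 and 7.81 for Kbtbd7).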
